A study of Mus musculus with 11 samples.

Results

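Glucose uptake and glycolysis were followed in mouse liver through 8 genes: the glucose transporter gene Slc2a2, the glycolytic enzyme genes Pfkl, Pfkfb1, Gapdh, Pgk1, Pklr and Ldha, and Mlxipl, which encodes a glucose-sensing transcription factor. Every probe whose symbol on the array equals one of these names was taken, whatever its values, which gave 15 of 45281 probes and 6 of the 8 genes. Gapdh and Ldha carry no probe under those names. RefSeq lists Gapd and Ldh1 as older symbols of these genes, and 4 further probes were taken under them, making 19. Of the 19 probes, 14 were detected on all 11 arrays and were tested among 16978 tested probes. The other 5 were undetected on every array.

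Liver RNA came from female C57Bl/6 mice, 1 array per animal, and the animals' age is not given in the labels. The 3 control mice received vehicle, whereas 4 mice were killed 6 h and 4 mice 12 h after an injection of 5'-adenosine monophosphate (5'-AMP) at 0.5 mg/g body weight. AIHM is the labels' name for mice killed at 6 h, and RF or Rev Flip that for mice killed at 12 h. What RF stands for and when the controls were killed are left unstated. No genetic change or further agent is named for any group.

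In liver, glucose enters and leaves hepatocytes through the transporter encoded by Slc2a2. Phosphofructokinase commits it to glycolysis, Gapdh and Pgk1 act in the middle of the pathway, pyruvate kinase (Pklr) ends it, and lactate dehydrogenase (Ldha) interconverts pyruvate and lactate. Mlxipl, with its partner Mlx, binds carbohydrate response elements when glucose metabolites accumulate, and Pklr is its classic target, as is Txnip.

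Arrays averaged between 412 and 635 intensity units, and precision is limited by how few arrays each group has. Of 12 hepatocyte markers 11 were measured, and their summed normalised signal ran from 216000 to 241000 over the 11 arrays, which bears on the tissue label. The sum was carried by bright probes such as Hpx and Ttr, each at a mean log2 signal of 15.36 in the controls. Alb averaged 6.66 and Tdo2 6.71 there, and Tat was not detected on enough arrays to be tested. Of 5 pancreatic islet markers, Ins2, Gcg, Iapp and Chga were not detected on enough arrays to be tested, which bears on Slc2a2, since islet beta cells express it too. The fifth, Ins1, was detected on control 2 and on mice 3 and 4 of the 6 h group, with a normalised signal of 141 on control 2 and of 31.1 to 51.7 on the other arrays. Erythroid markers matter for Pklr, whose second promoter serves red cells. The summed signal of the 4 measured of 7 was 26300, 51200 and 44200 in the controls, at 6 h between 56100 and 70400, and at 12 h between 50500 and 61300. Of the 4, 0 passed the limma test. At an unadjusted p under 0.05 there were 3 at 6 h and 2 at 12 h, against 15.9% and 17.6% of all probes. Among neutrophil markers 1 of 4 measured, S100a8, passed as higher at each time, against 0.807% and 2.69% of all tested probes. The part of these cell types in the results below was not tested. These are bulk RNA samples, in which fewer cells of a type and less RNA per cell cannot be told apart.

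None of the 14 tested probes passed in any comparison in limma with Benjamini-Hochberg adjustment over all 16978 probes (adjusted p under 0.05, two-sided). At 6 h, 0 of 14 passed, where 0.807% of all tested probes did (137 probes), 1 of 14 had an unadjusted p under 0.05 against 15.9% of all probes, and the smallest adjusted p was 0.134. At 12 h, 0 of 14 passed against 2.69% of all probes (456 probes), 4 of 14 had an unadjusted p under 0.05 against 17.6%, and the smallest adjusted p was 0.162. Between 12 h and 6 h, 0 of 14 passed against 0.872% (148 probes), with 0 of 14 at an unadjusted p under 0.05 against 14.5%. The 14 probes had a median log2 fold change of 0.13 at 6 h (all tested probes, -0.01), of 0.14 at 12 h (all, -0.02) and of 0.02 for 12 h against 6 h (all, 0.00). By the brightest probe of each of the 7 tested genes, these medians were 0.10, 0.06 and 0.02. Of those 7 probes, 0 had an unadjusted p under 0.05 in any comparison. The counts over all probes depended on single arrays. The 137 at 6 h became 84, 73 and 69 without control 1, 2 or 3, 85 without mouse 3 and 224 without mouse 4 of the 6 h group. The 456 at 12 h became 268 without control 1, 270 without control 3, and 288 and 291 without mouse 1 or 4 of the 12 h group. The 148 between the times became 61 without mouse 2 of the 6 h group, and 68, 94 and 57 without mouse 1, 2 or 4 of the 12 h group. In each of these fits 0 member probes passed. The comparisons at 6 h and 12 h share the 3 control arrays, so their values are not independent of each other.

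The control arrays did not overlap with the 6 h arrays for 2 of the 14 probes, 1 of Gapdh and 1 of Mlxipl, against 13.3% of all tested probes. At 12 h they did not overlap for 5 of 14, which were 3 probes of Slc2a2 and 2 of Mlxipl, against 20.5%. Several probes read the same gene. By the brightest probe of each tested gene the counts were 1 of 7 at 6 h and 2 of 7 at 12 h. No member probe separated 12 h from 6 h, against 9.15% of all.

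**Figure D1:**
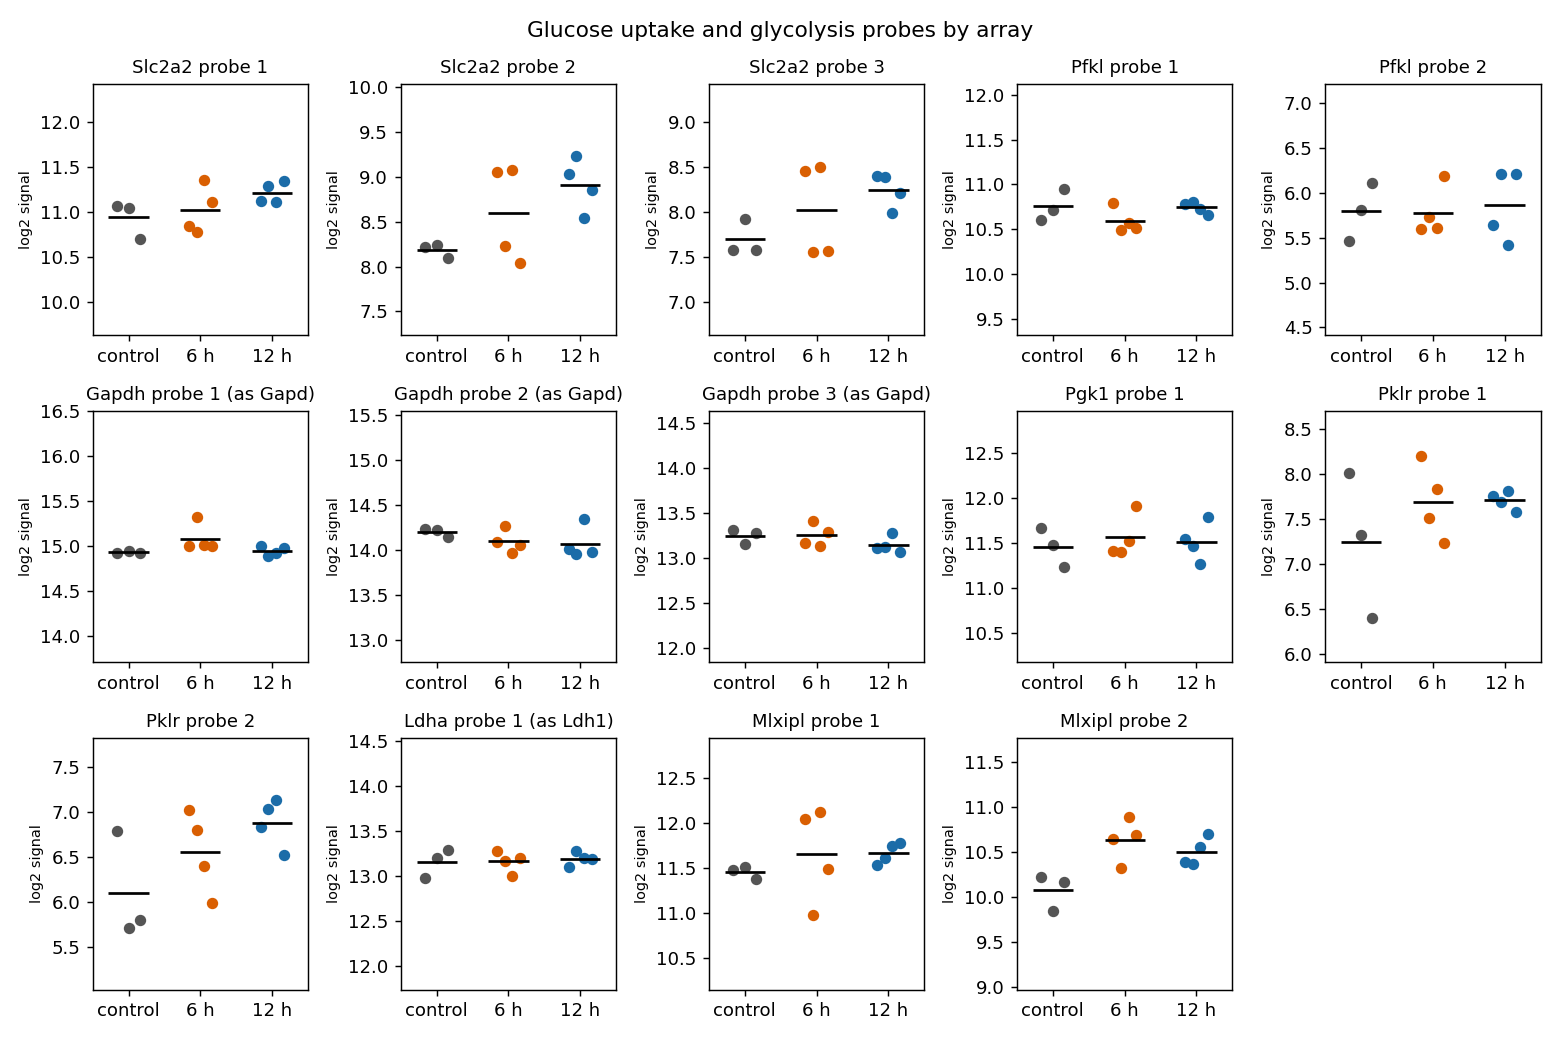
Normalised log2 signal of the 14 tested probes on each array, by group (3 control, 4 arrays at 6 h, 4 at 12 h); bars mark group means, and every panel spans the same range of log2 units around its own levels. Slc2a2 and Mlxipl at 12 h lie above all controls, whereas Pklr spreads widely among the controls.

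Slc2a2 encodes the main hepatic glucose transporter, and at 12 h its 3 tested probes lay above every control without passing the test. Values below are log2 signals after normalisation, given by array in the order of the labels' mouse numbers. Its brightest probe (ILMN_2861259) read 11.08, 11.05 and 10.71 in the controls, 10.85, 10.79, 11.36 and 11.11 at 6 h, and 11.13, 11.29, 11.11 and 11.35 at 12 h. All 12 h arrays lay above all controls, the 6 h arrays overlapped both groups, and the difference was 0.08 ± 0.16 (SE) at 6 h (limma adjusted p = 0.847) and 0.28 ± 0.16 at 12 h (limma adjusted p = 0.395).

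The second Slc2a2 probe (ILMN_2604904) read 8.22, 8.24 and 8.10 in the controls, 9.05, 8.22, 9.07 and 8.04 at 6 h, and 9.03, 9.23, 8.54 and 8.85 at 12 h. Mice 1 and 3 of the 6 h group were near the 12 h level and mice 2 and 4 at the control level. The difference was 0.41 ± 0.25 at 6 h (limma adjusted p = 0.462) and 0.73 ± 0.25 at 12 h (95% interval 0.18 to 1.28, limma adjusted p = 0.162). Fitted on the control and 12 h arrays alone, the same 0.73 had an adjusted p of 0.0386 in limma, so the call depended on which groups shared the estimate of spread. In that fit 5.28% of all tested probes passed, against 2.69% with all 3 groups fitted together.

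The third Slc2a2 probe (ILMN_2750284) read 7.58, 7.92 and 7.58 in the controls, 8.45, 7.55, 8.50 and 7.57 at 6 h, and 8.40, 8.39, 7.99 and 8.20 at 12 h. The same mice of the 6 h group were high and low as with the second probe. The difference was 0.33 ± 0.24 at 6 h (limma adjusted p = 0.551) and 0.55 ± 0.24 at 12 h (limma adjusted p = 0.26). Another probe (ILMN_2767739) was undetected on all 11 arrays, with raw signals of 68.4 to 103.

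The mice of the 6 h group also differed in array brightness. The mean raw signal was 468 and 458 on the arrays of mice 1 and 3, and 635 and 607 on those of mice 2 and 4. The part of brightness in the values of Slc2a2, and of Mlxipl, Pklr and the other genes below, was not tested. Within the microarray chips that held both groups, the second Slc2a2 probe at 12 h lay 0.63 above control on one chip and 0.996 on the other, each from 1 array against 1. At 6 h it lay -0.18, 0.83 and 0.54 from control on the 3 chips.

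Pfkl encodes the liver subunit of phosphofructokinase. Its brighter probe (ILMN_1236539) read 10.61, 10.72 and 10.95 in the controls, 10.79, 10.49, 10.57 and 10.52 at 6 h, and 10.78, 10.81, 10.73 and 10.66 at 12 h. All 3 groups overlapped, and the difference from control was -0.17 ± 0.13 at 6 h (limma adjusted p = 0.556) and -0.01 ± 0.13 at 12 h (95% interval -0.29 to 0.26). The dimmer probe (ILMN_2871325), close to background with group means of 5.79, 5.78 and 5.87, differed from control by -0.01 ± 0.23 at 6 h and 0.08 ± 0.23 at 12 h. The offset of 16 added before the logarithm understates changes of dim probes such as this one.

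Pfkfb1 encodes the liver form of the enzyme that makes and degrades the main allosteric activator of phosphofructokinase. Its only probe (ILMN_2667132) was undetected on all 11 arrays, with detection p between 0.377 and 0.993. Raw signals lay between 74.8 and 90.6 in the controls, between 70.3 and 89.0 at 6 h, and between 64.9 and 87.1 at 12 h, not above background, so these arrays give no comparison for Pfkfb1.

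Gapdh, often used as a reference gene, oxidises glyceraldehyde phosphate, and its 3 probes lay near the top of the signal range. The brightest (ILMN_2758581) read 14.92, 14.94 and 14.92 in the controls, 15.00, 15.32, 15.01 and 15.00 at 6 h, and 15.00, 14.88, 14.92 and 14.98 at 12 h. All 6 h arrays were above the controls, mouse 2 the most, and the difference was 0.15 ± 0.12 (95% interval -0.10 to 0.40, limma adjusted p = 0.572), against 0.02 ± 0.12 at 12 h. Quantile normalisation gives arrays of equal rank the same value, here 14.9245 on controls 1 and 3 and 14.9969 on mice 1 and 4 of the 6 h group. The raw signals overlapped, at 27400 to 35700 in the controls and 30100 to 40200 at 6 h.

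The other Gapdh probes did not share that order. One (ILMN_2588056) averaged 14.20 ± 0.05 (SD, n = 3) in the controls, 14.09 ± 0.13 (n = 4) at 6 h and 14.07 ± 0.18 (n = 4) at 12 h, and the other (ILMN_1377924) averaged 13.25 ± 0.08, 13.25 ± 0.12 and 13.14 ± 0.09. Both overlapped between all groups. Probe sequences were not used here, so whether Gapdh pseudogene transcripts contribute to these signals is uncertain.

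Pgk1 encodes phosphoglycerate kinase, the first ATP-yielding step of glycolysis. Its tested probe (ILMN_2651886) read 11.67, 11.49 and 11.23 in the controls, 11.41, 11.40, 11.53 and 11.92 at 6 h, and 11.55, 11.47, 11.27 and 11.79 at 12 h. The groups overlapped, with differences of 0.10 ± 0.17 at 6 h and 0.06 ± 0.17 at 12 h. Its probes ILMN_2797973 and ILMN_1226872 were undetected on all 11 arrays, with raw signals between 64.2 and 98.6.

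Ldha, measured under its older symbol by 1 probe (ILMN_1257965), read 12.98, 13.20 and 13.29 in the controls, 13.28, 13.17, 13.00 and 13.21 at 6 h, and 13.10, 13.28, 13.21 and 13.19 at 12 h. The groups overlapped, and the differences were 0.00 ± 0.12 (95% interval -0.26 to 0.27) and 0.04 ± 0.12 (95% interval -0.23 to 0.30).

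**Figure D2:**
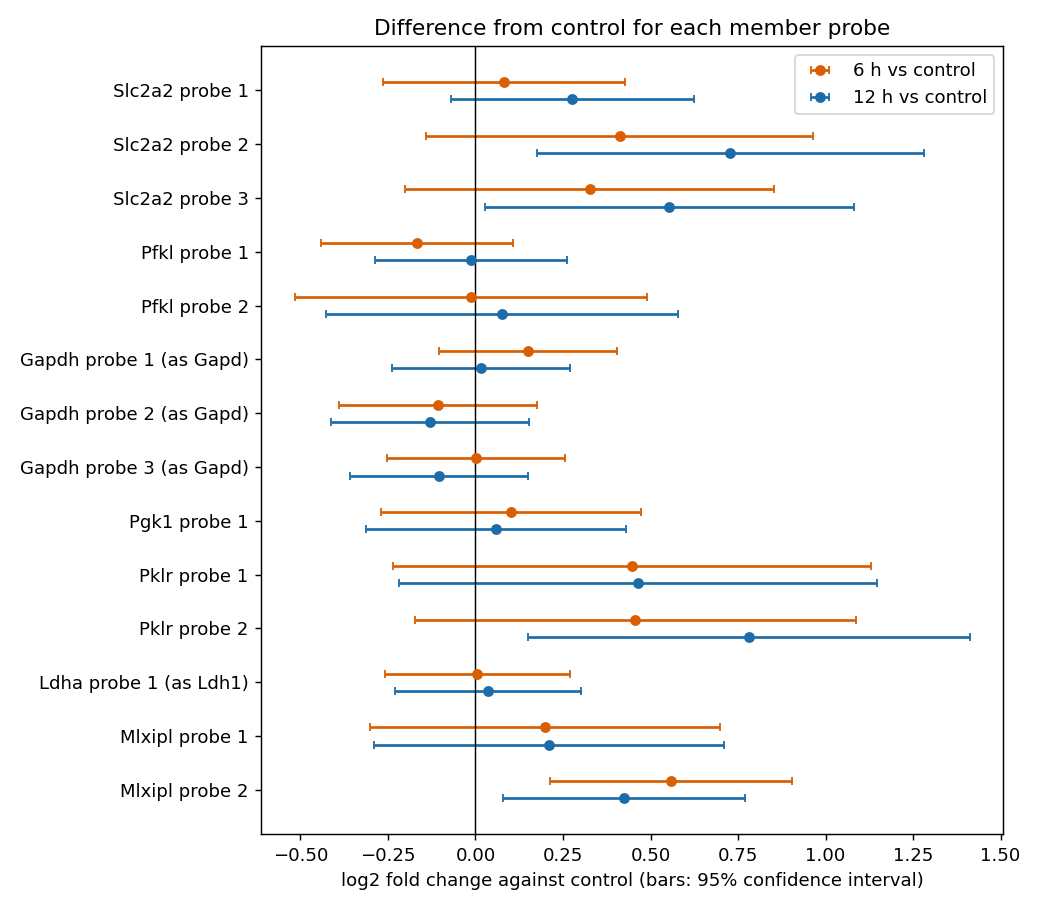
Log2 fold change against control for each tested probe at 6 h (orange) and 12 h (blue), with 95% confidence intervals from the limma fit, not adjusted for the number of probes. Intervals of Pfkl, Gapdh, Pgk1 and Ldha span 0 at both times, and the intervals are widest for Pklr.

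Pklr encodes the pyruvate kinase of liver and red cells, transcribed from separate promoters. The RefSeq promoter window of the downstream, liver-type start (GRCm38.p6, chr3:89136373-89136672, plus strand) is shown because it holds the carbohydrate response element to which Mlxipl binds. Its match to the consensus for that element, which begins 170 bases before the start and was searched for by that name on both strands, is in capitals.

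Pklr: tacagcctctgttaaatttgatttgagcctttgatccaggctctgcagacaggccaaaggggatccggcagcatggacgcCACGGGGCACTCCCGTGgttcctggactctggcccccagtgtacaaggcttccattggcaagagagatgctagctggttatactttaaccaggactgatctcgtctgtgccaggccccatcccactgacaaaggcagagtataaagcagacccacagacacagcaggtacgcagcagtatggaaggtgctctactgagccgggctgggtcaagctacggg

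Of 32851 mouse promoter windows of the same length, 39 (0.119%) matched that consensus. All 8 genes have listed windows, 14 in total, and among them only this one matched. Such a match describes the letters and does not show binding in these livers.

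The brightest Pklr probe (ILMN_2704285) read 8.01, 7.32 and 6.40 in the controls, 8.20, 7.51, 7.83 and 7.23 at 6 h, and 7.76, 7.69, 7.81 and 7.58 at 12 h. The controls spanned nearly the whole range of the treated arrays and beyond its lower end, with an SD of 0.81 against 0.42 at 6 h and 0.10 at 12 h. The difference was 0.45 ± 0.31 at 6 h (limma adjusted p = 0.52) and 0.46 ± 0.31 at 12 h (limma adjusted p = 0.471). Its size depended on the lowest and the highest control: without control 3 the difference was 0.03 at 6 h and 0.04 at 12 h, and without control 1 it was 0.83 and 0.85. Control 1, the highest in Pklr, had the lowest erythroid marker sum, 26300, and the part of red cells in the Pklr values was not tested.

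A second Pklr probe (ILMN_2944041) read 6.79, 5.71 and 5.80 in the controls, 7.02, 6.81, 6.40 and 5.99 at 6 h, and 6.83, 7.03, 7.14 and 6.52 at 12 h. Control 1 was again high, and all groups overlapped. The difference was 0.46 ± 0.29 at 6 h (limma adjusted p = 0.476) and 0.78 ± 0.29 at 12 h (95% interval 0.15 to 1.41, limma adjusted p = 0.187). Within chips the sign differed. On chip 1, whose control is control 1, the 6 h array lay at -0.79 with the brightest probe and -0.80 with this one, whereas on the other chips the brightest probe lay 0.51 and 1.46 above control. Another probe (ILMN_2675491) was undetected on all 11 arrays. Which Pklr transcript each probe reads was not analysed here.

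By the rule for genes most like a member, Pklr was taken because its group means ranged most among the leading probes. Over 11 arrays, after centring each gene on its own mean, the closest of 7943 genes were Man1a2 (root mean square difference 0.23 log2 units), Smcr7l (0.25) and Rsrc2 (0.28).

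Mlxipl encodes the glucose-sensing factor itself. Its brighter probe (ILMN_2992232) read 11.48, 11.51 and 11.38 in the controls, 12.04, 10.97, 12.12 and 11.49 at 6 h, and 11.53, 11.61, 11.75 and 11.77 at 12 h. At 6 h mice 1 and 3 were above every control, mouse 2 below and mouse 4 within, while all 12 h arrays lay just above. The difference was 0.20 ± 0.23 at 6 h (limma adjusted p = 0.719) and 0.21 ± 0.23 at 12 h (limma adjusted p = 0.687).

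The dimmer Mlxipl probe (ILMN_1259035) had the smallest adjusted p of all members at 6 h. It read 10.23, 9.85 and 10.17 in the controls, 10.65, 10.32, 10.89 and 10.69 at 6 h, and 10.39, 10.36, 10.56 and 10.70 at 12 h. Both treated groups lay above every control. The difference was 0.56 ± 0.16 at 6 h (95% interval 0.21 to 0.90, limma adjusted p = 0.134) and 0.42 ± 0.16 at 12 h (95% interval 0.08 to 0.77, limma adjusted p = 0.19). It was positive on every chip that held both groups, at 0.47, 1.04 and 0.32 at 6 h and 0.48 and 0.51 at 12 h. With median centring in place of quantile normalisation the 6 h difference was 0.71 and passed (limma adjusted p = 0.0496), although that scaling also moved the median of all probes at 6 h from -0.01 to 0.13. With median centring 1.58% of all tested probes passed at 6 h, against 0.807% with quantile normalisation.

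Other genes of the same metabolism were counted in 4 lists of 66 genes, of which 63 were on the array and 50 measured, each by its brightest tested probe. At 6 h 1 of the 50 passed and at 12 h 2 did, against 0.807% and 2.69% of all tested probes. All were higher, and all were in the list of Mlxipl partners and target genes. Counted by any tested probe, 2 of the 50 passed at 6 h and 3 at 12 h. A dimmer probe of Thrsp, in the same list, passed at both times while its brightest did not. No control array detected that dimmer probe, which was tested only because the treated arrays did. The lists were chosen with earlier results of these data known, so neither the larger nor the smaller counts are support for this list. Of the 18 measured glycolytic enzymes 0 passed at either time by limma, with a median log2 fold change of -0.06 at 6 h and -0.23 at 12 h, and 0 and 3 of them had an unadjusted p under 0.05. Of the 9 genes of fructose and galactose handling and their regulation 0 passed (medians -0.15 and -0.06, with 3 and 2 at an unadjusted p under 0.05). Of the 7 hexose and lactate transporters 0 passed (medians 0.04 and -0.02, with 2 and 1). The Mlxipl partners and target genes, 16 measured, had medians of 0.11 and 0.01, with 3 and 5 at an unadjusted p under 0.05. Of all tested probes, 15.9% at 6 h and 17.6% at 12 h had an unadjusted p under 0.05.

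Gckr, a regulatory protein of hepatic sugar metabolism, differed by 0.26 ± 0.20 at 6 h and 0.15 ± 0.20 at 12 h, with arrays that overlapped the controls. Among hexokinases typical of other tissues, Hk1 was not detected on enough arrays to be tested, and Hk2, at a mean of 7.07 in the controls, differed by 0.10 ± 0.21 at 6 h and -0.42 ± 0.21 at 12 h (limma adjusted p = 0.335).

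Eno1, an enolase, differed by 0.15 ± 0.16 at 6 h and 0.33 ± 0.16 at 12 h with its brightest probe (ILMN_2958159), and by 0.07 ± 0.11 and 0.01 ± 0.11 with the other (ILMN_2628271). Pkm2, the pyruvate kinase of most non-hepatic cells, differed by -0.13 ± 0.20 and -0.48 ± 0.20 (limma adjusted p = 0.243 at 12 h). Neither gene passed. Pfkfb3, the inducible relative of Pfkfb1, was detected on 0 of 3 control arrays, 1 of 4 at 6 h and 2 of 4 at 12 h, so its level is near background.

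Slc2a1, the glucose transporter of most other cell types, read 8.92, 9.27 and 9.24 in the controls and 9.67, 9.42, 9.75 and 9.59 at 12 h. All 12 h arrays lay above the controls, and the difference of 0.47 ± 0.13 did not pass (limma adjusted p = 0.0945). At 6 h it was 0.05 ± 0.13. Slc16a1, a lactate transporter, was not detected on enough arrays to be tested. Mlx, the partner of Mlxipl, differed by 0.07 ± 0.22 at 6 h and -0.14 ± 0.22 at 12 h with its brightest probe, and by 0.22 ± 0.29 and -0.21 ± 0.29 with the other (ILMN_2620517).

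**Figure D3:**
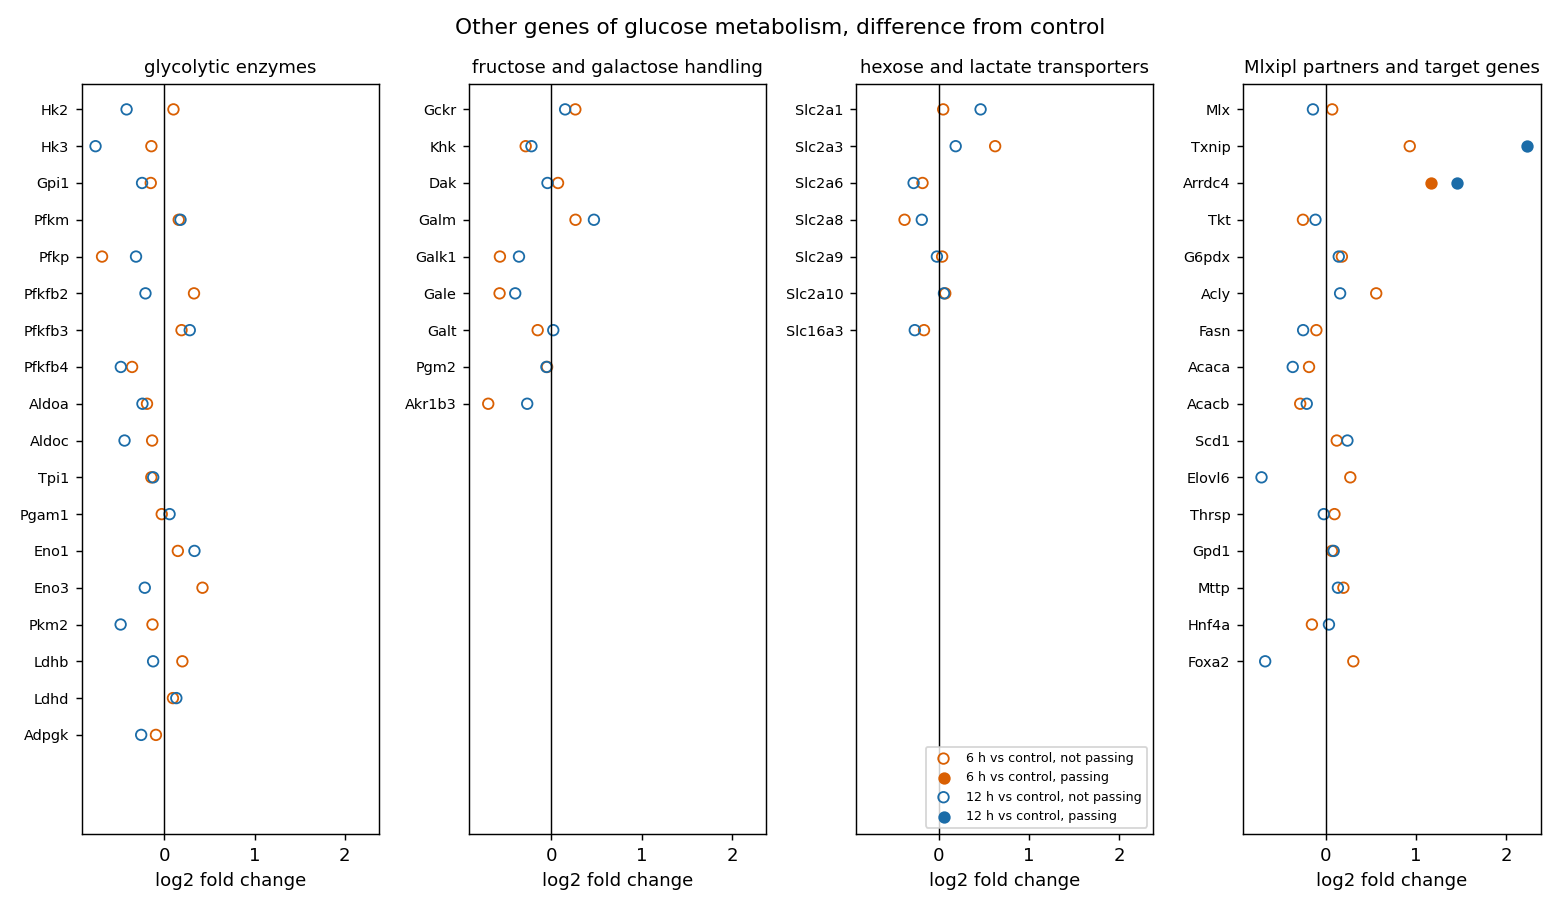
Log2 fold change against control at 6 h (orange) and 12 h (blue) for the 50 measured genes of the 4 lists, each by its brightest tested probe; filled circles passed an adjusted p of 0.05 and open circles did not. The filled circles are Arrdc4 at both times and Txnip at 12 h, and the dimmer Thrsp probe, which passed at both times, is not plotted.

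Txnip and Arrdc4 encode related arrestin-domain proteins that restrain glucose uptake, and both are known targets of Mlxipl and of its relative Mlxip. Their RefSeq promoter windows (GRCm38.p6) are shown because their brightest probes passed where no member did. In the Txnip window (chr3:96557707-96558006, plus strand) the capitals run over 2 copies of CACGAG on the same strand with 5 bases between them, a motif chosen with this promoter in view, from 85 bases before the start. In the Arrdc4 window (chr7:68749189-68749488, minus strand) they mark CACGTG, 193 bases before the start.

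Txnip: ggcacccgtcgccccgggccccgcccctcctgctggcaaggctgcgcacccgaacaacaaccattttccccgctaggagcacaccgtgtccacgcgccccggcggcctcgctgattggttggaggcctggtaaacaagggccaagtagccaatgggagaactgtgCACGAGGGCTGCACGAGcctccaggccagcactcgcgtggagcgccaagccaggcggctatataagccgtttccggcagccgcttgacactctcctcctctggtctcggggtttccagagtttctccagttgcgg
Arrdc4: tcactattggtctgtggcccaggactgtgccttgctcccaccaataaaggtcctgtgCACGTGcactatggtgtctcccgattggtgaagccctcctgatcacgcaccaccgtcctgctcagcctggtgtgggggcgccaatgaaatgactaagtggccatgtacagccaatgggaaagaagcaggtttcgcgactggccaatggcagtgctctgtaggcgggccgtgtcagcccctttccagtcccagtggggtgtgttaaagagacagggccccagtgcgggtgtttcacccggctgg

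Both motifs were searched on both strands, and no printed window held more than 1 motif. CACGTG was found in 2349 of 32851 windows (7.15%) and the paired CACGAG of Txnip in 1 (0.00304%). Among the members, CACGTG was found in a window of Ldha, at 145 and 48 bases before the start, and in one of Mlxipl, at 98 bases before it. A match is no evidence of binding, and windows without one may hold other forms of the element.

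Txnip rose at 12 h. Its brighter probe (ILMN_1213609) read 11.14, 11.05 and 11.07 in the controls, 12.57, 11.73, 11.87 and 11.88 at 6 h, and 13.12, 13.34, 13.01 and 13.79 at 12 h. The 3 groups did not overlap at any step. The 12 h difference was 2.23 ± 0.22, or 4.70-fold (limma adjusted p = 8.25e-05), and 12 h exceeded 6 h by 1.30 ± 0.20 (limma adjusted p = 0.011). At 6 h it was 0.93 ± 0.22 (limma adjusted p = 0.078), which did not pass, although every array lay above the controls.

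The other Txnip probe (ILMN_3112873) differed by 0.92 ± 0.23 at 6 h (limma adjusted p = 0.0975) and 2.33 ± 0.23 at 12 h (limma adjusted p = 8.68e-05). Within chips, the brighter probe at 12 h lay 2.65 and 2.29 above control. With chip as a fixed block, the difference between 12 h and 6 h was 1.63 and no longer passed (limma adjusted p = 0.133), a fit in which the 12 h arrays of mice 1 and 3, each alone on its chip, carry no information.

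Arrdc4 rose at both times. Its probe (ILMN_2648967) read 8.03, 8.16 and 7.73 in the controls, 9.31, 8.94, 9.25 and 9.06 at 6 h, and 9.44, 9.37, 9.24 and 9.69 at 12 h. All treated arrays lay above all controls. The difference was 1.17 ± 0.15 at 6 h, or 2.25-fold (limma adjusted p = 0.00234), and 1.46 ± 0.15 at 12 h, or 2.75-fold (limma adjusted p = 0.000168), whereas 12 h and 6 h differed by 0.29 ± 0.14 (limma adjusted p = 0.375). Within chips it lay 1.03, 1.10 and 1.39 above control at 6 h and 1.66 and 1.21 at 12 h.

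The 2 tested probes of Thrsp, which encodes a nuclear protein linked to lipogenesis, disagreed. The brightest (ILMN_1256775) read 11.53, 9.71 and 11.22 in the controls, 10.83, 11.26, 10.95 and 10.65 at 6 h, and 10.60, 10.41, 11.42 and 10.78 at 12 h. All groups overlapped, and the difference was 0.10 ± 0.37 at 6 h (limma adjusted p = 0.929) and -0.02 ± 0.37 at 12 h (limma adjusted p = 0.985).

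The dimmer Thrsp probe (ILMN_1243094), named here after its values were seen, read 4.58, 4.58 and 4.44 in the controls, 6.50, 6.29, 6.82 and 5.53 at 6 h, and 7.20, 7.53, 7.77 and 6.61 at 12 h. No control array detected it, every treated array did, and the treated groups lay above the controls. Because the controls were not above background, each fold is a lower bound, set against the mean over the control arrays of the lowest signal detected on each (5.38). The probe was at least 1.87-fold higher at 6 h and at least 3.71-fold higher at 12 h, and these bounds were not tested. The limma fit used the measured control values, with differences of 1.75 ± 0.30 at 6 h (limma adjusted p = 0.0174) and 2.74 ± 0.30 at 12 h (limma adjusted p = 0.000225). Only the treated arrays, where it was high, brought the probe into the tested set, so these p-values are descriptive. The times differed by 0.99 ± 0.28 (limma adjusted p = 0.122). At 6 h the call was lost without control 1, 2 or 3 or mouse 1 of the 6 h group, with limma adjusted p of 0.0729, 0.073, 0.0862 and 0.0507. Which Thrsp transcript each probe reads was not analysed here.

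Between 12 h and 6 h, 2 of the 50 list genes passed by their brightest probe, against 0.872% of all tested probes. They were Txnip, higher, and Foxa2, lower. Foxa2, a hepatocyte transcription factor named here after its values were seen, averaged 7.78 ± 0.23 (SD, n = 3) in the controls, 8.08 ± 0.36 (n = 4) at 6 h and 7.11 ± 0.29 (n = 4) at 12 h. The difference between the times was -0.98 ± 0.20 (limma adjusted p = 0.0423), and neither time passed against control. The call was lost when any of 10 single arrays was left out, among them mouse 4 of the 12 h group, without which it was -0.84 (limma adjusted p = 0.143).

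**Figure D4:**
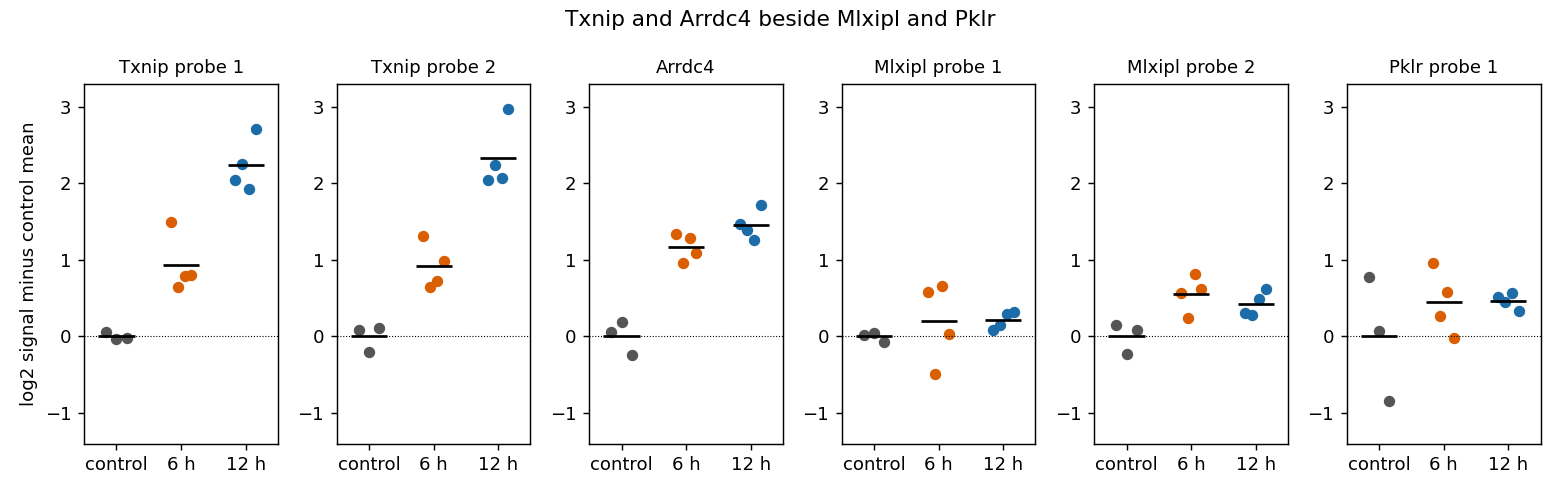
Log2 signal minus the control mean on each array for Txnip (both probes), Arrdc4, Mlxipl (both probes) and the brightest Pklr probe; bars mark group means. Txnip steps up from control to 6 h and to 12 h, Arrdc4 is high at both times, and the Pklr controls span more than the treated arrays.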

How the data were processed

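Liver RNA of 11 mice was measured on Illumina BeadChips. Per the file headers, the deposited values are linear intensities, mean bead signals that were not normalised, and a detection p-value stands beside each deposited signal. GenomeStudio is named in the submitters' processing notes, with no version. The authors' normalised intensity values were used only as an alternative, floored at 16. Groups and mouse numbers were taken from the labels. All deposited value columns were used.

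The function neqc of limma 3.58.1 (R 4.3.3, statmod 1.5.0) corrected the background by normexp from those p-values with an offset of 16, quantile-normalised the arrays and took log2. A probe was tested (16978 of 45281) where at least 3 arrays detected it at p under 0.05. Group means were fitted by limma over the 11 arrays together (8 residual and 4.25 prior degrees of freedom), with two-sided p-values adjusted by Benjamini and Hochberg over all tested probes within each comparison. The labels name separate mice, so p-values measure the spread between these animals. The fit was tested on simulated data with independent noise and changes larger than any member difference here. That check does not bear on smaller differences.

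The members and lists were chosen with earlier results of these data known. All member probes are named. Named list genes are those passing against control by their brightest probe, plus Gckr, Hk1, Hk2, Pkm2, Eno1, Pfkfb3, Slc2a1, Slc16a1, Txnip and Mlx. Some list genes are not reported here. The 3 genes most like a member follow the member with a passing leading probe or, as here with none, the widest range of group means. The arrays lie on 5 chips, of which 3 hold both control and 6 h arrays and 2 both control and 12 h arrays. As alternatives, median centring, signals without background correction, only the compared groups, the authors' normalised values, 1 probe per gene, all probes, only probes detected at p under 0.01 on every array, replicate number as a block, chip as a fixed or random block, and leaving out each array were tried. The marker lists beyond hepatocyte, islet and erythroid markers, of Kupffer cells and neutrophils and of stellate, endothelial, biliary, exocrine pancreatic, muscle and lymphoid cells, are summarised in the closing section.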

Additional observations from a re-analysis of the deposited data

Results flagged for a closer look

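For 2 of 52 groups of 4 arrays looked at, 1 array stood apart from the rest of its group, where chance marks about 1 group in 20. Both were Gapdh probes. The brightest (ILMN_2758581) read 15.32 in mouse 2 of the 6 h group, with the nearest of the others at 15.01, a gap of 0.975 of the range. A second (ILMN_2588056) read 14.34 in mouse 3 of the 12 h group, with the nearest at 14.00, a gap of 0.863 of the range. Mouse 2 of the 6 h group also had the brightest array, with a mean raw signal of 635. Its summed signal of skeletal muscle markers was 778, against 84.3 to 126 on the other arrays. The part of brightness or muscle in its Gapdh value was not tested.

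The effects at 12 h and 6 h differed by a direct test for Txnip, by 1.30 (limma adjusted p = 0.011), and for Foxa2, by -0.98 (limma adjusted p = 0.0423).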

How the results depend on the processing

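All 21 alternatives left 0 member probes passing between 12 h and 6 h. At 6 h the exception was median centring, with 1 of 14 passing (Mlxipl ILMN_1259035), where 1.58% of all tested probes passed. At 12 h it was the fit of only the compared groups, with 1 of 14 passing (Slc2a2 ILMN_2604904, limma adjusted p = 0.0386). In that fit 5.28% of all tested probes passed. The stricter filter (detection p under 0.01 on every array) and 1 probe per gene tested fewer than 14 member probes. Txnip at 12 h and Arrdc4 at both times passed in all 21. The dimmer Thrsp probe (ILMN_1243094) passed at 12 h in all 19 alternatives that tested it and at 6 h in 14 of 19, failing with all probes tested (adjusted p = 0.0524) and without 4 single arrays. Txnip at 6 h passed without background correction (adjusted p = 0.0424) and with median centring (adjusted p = 0.0301). Median centring moved the share of higher calls from 67.2% to 93.7% at 6 h and from 54.1% to 9.02% between the times, where it moved the median of all probes to -0.20. Counts over all probes that moved by over 1.5 times were, at 6 h (137), 289 without background correction, 268 with median centring, 231 with chip as a random block, 67 with chip as a fixed block and 62 with only the compared groups. At 12 h (456) they were 896 with only the compared groups, 301 with the stricter filter and 159 with chip as a fixed block. The stricter filter tested only 11038 probes, and the share passing was 2.73%, against 2.69% in the main fit. Between the times (148) the counts were 843 with median centring, 260 without background correction and 7 with chip as a fixed block. Leaving out each array in turn gave 69 to 224, 268 to 549 and 57 to 158. Deviations of mice with the same replicate number correlated from -0.213 to 0.455. Mice with different numbers were not compared, so whether the numbers pair the mice is not settled. The fit with the replicate block called 125, 454 and 104 probes, none of them members. Foxa2 between the times failed in 15 of 21 alternatives.

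The reversals below all concern differences that did not pass. Median centring gave Pfkl ILMN_2871325 0.11 and Pkm2 0.063 at 6 h, and Gapdh ILMN_2758581 -0.11, Pgk1 -0.048 and Ldha -0.11 at 12 h, and Pklr ILMN_2704285 -0.22, Pfkl ILMN_1236539 -0.097, Pfkl ILMN_2871325 -0.049, Ldha -0.18, Slc2a2 ILMN_2861259 -0.042, Slc2a2 ILMN_2750284 -0.021 and Mlxipl ILMN_2992232 -0.21 between the times. The replicate block gave Pgk1 -0.00060, Ldha -0.0011 and Mlx -0.047 at 6 h, and Pfkl ILMN_1236539 0.014, Pfkl ILMN_2871325 -0.047, Pgk1 -0.046 and Thrsp ILMN_1256775 0.028 at 12 h. Chip as a fixed block gave Gapdh ILMN_1377924 -0.0077 and Ldha -0.021 at 6 h, and Pfkl ILMN_1236539 0.035 at 12 h, and Pklr ILMN_2704285 -0.21 and Mlxipl ILMN_2992232 -0.076 between the times. Chip as a random block gave Gapdh ILMN_1377924 -0.00080 and Ldha -0.0010 at 6 h, and Pklr ILMN_2704285 -0.017 and Mlxipl ILMN_2992232 -0.0077 between the times. Leaving out each array in turn gave, at 6 h, Ldha -0.083 to 0.072, Hk2 -0.050 to 0.24, Slc2a1 -0.061 to 0.11, Gapdh ILMN_1377924 -0.049 to 0.041, Thrsp ILMN_1256775 -0.46 to 0.45, Pfkl ILMN_2871325 -0.18 to 0.14, Pgk1 -0.014 to 0.21, Slc2a2 ILMN_2861259 -0.037 to 0.16, Mlx -0.13 to 0.20 and Pkm2 -0.26 to 0.021. Leaving out each array in turn gave, at 12 h, Pfkl ILMN_2871325 -0.090 to 0.23, Ldha -0.053 to 0.10, Thrsp ILMN_1256775 -0.57 to 0.33, Pfkl ILMN_1236539 -0.089 to 0.085, Pgk1 -0.058 to 0.16 and Gapdh ILMN_2758581 -0.0017 to 0.037. Leaving out each array in turn gave, between the times, Pklr ILMN_2704285 -0.14 to 0.19, Gapdh ILMN_2588056 -0.12 to 0.033, Mlxipl ILMN_2992232 -0.22 to 0.17, Ldha -0.023 to 0.069, Pgk1 -0.13 to 0.072 and Pfkl ILMN_2871325 -0.025 to 0.24. The causes of these reversals were not tested. With 3 or 4 arrays a group and probes near background, small differences are not resolved.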

Other observations

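Among the other marker lists, the summed normalised signal of 8 Kupffer cell and macrophage markers lay between 5040 and 7320 in the controls, between 3330 and 8030 at 6 h, and between 3030 and 4700 at 12 h. Of these markers 0 passed the limma test. At an unadjusted p under 0.05 there were 1 at 6 h and 4 at 12 h, against 15.9% and 17.6% of all probes. In the same order of groups, that of 4 neutrophil markers was 207 to 411, 254 to 1450 and 322 to 928. That of 4 stellate cell markers was 2980 to 3730, 3540 to 3730 and 2480 to 2990. Of these, 1 marker, Lrat, passed as lower at 12 h, against 2.69% of all tested probes. Endothelial markers summed to 7570 to 7930, 7730 to 9910 and 6810 to 7040, and biliary markers to 1160 to 1690, 1150 to 1630 and 1010 to 1460. Exocrine pancreatic markers, 3 of 8 measured, summed to 11100 to 12400, 10700 to 15900 and 10800 to 13000. Nearly all of that sum was Amy2, at a mean log2 signal of 13.50 in the controls, against 5.03 for Clps and 5.19 for Ctrb1. Pnlip, Cpa1, Cel and Prss1 were not detected on enough arrays to be tested. Skeletal muscle markers, 2 of 6 measured, summed to 87.8 to 110, 84.3 to 778 and 104 to 120, and lymphocyte markers, 2 of 6 measured, to 77.4 to 97.7, 57.3 to 133 and 56.4 to 71.6. The part of these lists in the member values was not tested.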
